A study of Mus musculus with 8 samples.

Results

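TGF-β signalling genes were described across cultured immune cells of male and female mice of 2 labelled strains. They are 10 genes listed by symbol: the ligands Tgfb1 and Tgfb3, the receptors Tgfbr1 and Tgfbr2, the transducers Smad2, Smad3 and Smad4, the inhibitory Smad7 and the corepressors Ski and Skil. The symbols were mapped to Ensembl identifiers with GENCODE release M21, and all 10 were found among the 52636 genes of the count table. A floor of 3 on the mean log2 CPM (counts scaled to sequencing depth) was passed by 9 of them. Tgfbr1, with a mean log2 CPM of 1.98, did not pass it.

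Cells of spleen and lymph node came from mice aged 35 to 55 days that had no disease signs yet, and were kept in culture for 4 days. Every culture received anti-CD3 at 1 µg/ml, recombinant mouse IL-23 and IL-6 at 20 ng/ml each, IL-12 at 3 ng/ml and recombinant human TGF-β at 4 ng/ml, a mixture labelled TH1/TH17. The 4 groups were females and males labelled TCR1640 and females and males labelled SJL/J (wild type), with 2 count columns in each. TCR1640 mice bear a transgenic T cell receptor that recognises myelin, and they become ill spontaneously with a multiple sclerosis-like disease. All groups were exposed to the same added TGF-β, and no culture without it is analysed here, so the data compare strains and sexes under this cytokine, not its effect. The cells were not sorted by type after culture as far as the labels say.

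TGF-β is made as a latent complex and must be released before it can bind. The freed ligand binds TGFBR2, which activates the kinase TGFBR1. That kinase phosphorylates SMAD2 and SMAD3, which join SMAD4 and enter the nucleus. SMAD7 blocks the activated receptor, and SKI and SKIL (SnoN) hold SMAD complexes in a repressed state. In T cells the pathway restrains activation and supports regulatory T cells, and together with IL-6 it promotes the Th17 program.

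Promoters from RefSeq (GRCm38.p6) were found for Tgfb1, Tgfbr1, Tgfbr2, Smad3 and Ski. The 250 bases before the RefSeq start are shown for 3 of them. They were picked because Tgfb1 and Tgfbr2 stood apart between the strain labels in opposite directions and Ski moved little. For Ski this start lies inside the gene as given by GENCODE, so the bases from 155222536 to 155222592 of its window are within that gene. Capitals mark matches on either strand to GGGCGG, the core of the GC box bound by Sp1, and CAGAC, which holds the SMAD-binding sequence. No capitals of the 2 motifs overlap each other in these windows, and TGANTCA (AP-1), which was also searched, is not in them.
Tgfb1, chr7:25686752-25687001, plus strand: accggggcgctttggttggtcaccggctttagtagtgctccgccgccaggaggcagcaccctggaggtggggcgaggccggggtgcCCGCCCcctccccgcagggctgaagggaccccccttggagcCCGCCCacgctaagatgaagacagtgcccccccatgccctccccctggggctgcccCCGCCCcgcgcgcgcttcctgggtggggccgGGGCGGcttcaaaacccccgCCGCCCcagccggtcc
Tgfbr2, chr9:116175364-116175613, minus strand: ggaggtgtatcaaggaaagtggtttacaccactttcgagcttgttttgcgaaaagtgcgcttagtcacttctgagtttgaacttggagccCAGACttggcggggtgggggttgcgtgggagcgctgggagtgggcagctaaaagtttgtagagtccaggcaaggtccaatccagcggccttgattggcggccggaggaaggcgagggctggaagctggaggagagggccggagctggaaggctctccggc
Ski, chr4:155222536-155222785, minus strand: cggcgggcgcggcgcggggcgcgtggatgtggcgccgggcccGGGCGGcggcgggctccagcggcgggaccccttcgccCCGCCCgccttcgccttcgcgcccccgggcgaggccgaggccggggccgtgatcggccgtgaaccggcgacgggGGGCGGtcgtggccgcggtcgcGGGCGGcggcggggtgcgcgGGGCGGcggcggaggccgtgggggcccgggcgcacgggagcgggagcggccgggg
The Tgfb1 and Ski windows each hold GGGCGG 5 times and CAGAC 0 times, with a GC content of 75.2% and 87.6%. The Tgfbr2 window holds CAGAC 1 time and GGGCGG 0 times, at 58.4% GC. Of 32851 promoter windows of this length, 32.7% hold GGGCGG, 42.2% hold CAGAC and 6.75% hold TGANTCA, and the median GC content is 52.4%. These matches describe the windows and are not evidence of binding.

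The columns held 3765291 to 5116467 counts. The pair of columns within each group differed by hardly more than sampling noise (chi-square per degree of freedom 1.05 to 1.08, against 3.12 to 17.1 between groups). They were therefore summed and counted as 1 sample, so n = 1 per group, and ratios between 2 groups have no replicate check. Their exact 95% intervals, called counting intervals below, cover counting error only. Ranges of single columns given below likewise show little more than counting spread and do not act as replicates. A ratio was called when it reached 1.5-fold, its interval excluded equality and the gene passed the floor on CPM. Sex labels matched the data, with 0 Eif2s3y counts in every female column and 87 to 124 in male columns. T cell receptor segments went against the strain labels, since a transgenic receptor should dominate in TCR1640 cells. Traj43 took 5.04% of alpha joining counts (exact 95% interval 1.87% to 10.7%) in the female and 2.91% (0.951% to 6.65%) in the male TCR1640-labelled sample. The corresponding SJL/J-labelled shares were 75.6% (71.3% to 79.4%) and 79.2% (75.1% to 83.0%). Every strain direction below therefore refers only to how a library is labelled. The strand setting of the counting is not given in the sources used here. Where a noncoding feature overlapped a protein-coding gene from the other strand (985 pairs with at least 200 counts each), it had the higher count in 75.7%. Of the 10 genes, Tgfb3 alone shares exon bases with an annotated feature on the opposite strand. The doubt about the strand setting reaches the counts of every gene, with or without such a feature.

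Markers of other cell types differed between the strain labels, and their part in the results that follow was not tested. The 8 CD8 T cell markers summed to 332 and 341 CPM in TCR1640-labelled females and males and to 71.4 and 83.3 CPM in those labelled SJL/J, with Gzmk at 0 in every group. The 8 naive T cell markers summed to 1594 and 1629 CPM against 887 and 860.4 CPM. The 8 regulatory T cell markers summed to 585.6 and 588.8 CPM against 880.5 and 939.0 CPM, although the median log2 coefficient of that list was 0.43. Of its genes only Il2ra fell in the additive edgeR fit, at -1.02, with 2553 and 3286 counts against 5408 and 5411. Gpr83 and Tnfrsf18 rose, by 2 and 0.39, and the other 5 regulatory T cell markers did not pass. The 13 erythroid and platelet markers summed to 119 and 114 CPM against 254 and 374 CPM. Among them, Ppbp and Treml1 were at 0 in both libraries labelled TCR1640, and Gfi1b was at 0 in the female one. In the additive edgeR fit 9 of 12 tested genes of that list fell. The other 3 did not pass: the platelet gene Gp1ba, which stood higher under the TCR1640 labels at 0.32, and the haemoglobin genes Hba-a1 at -0.06 and Hbb-bs at -0.31. The 12 neutrophil markers summed to 20.7 and 16.3 CPM under the TCR1640 labels against 67.3 and 165 CPM. S100a8 and Elane were at 0 in both TCR1640-labelled libraries. Of 9 tested genes of that list, 7 fell in the additive edgeR fit. Ly6g went the other way and rose by 1.34, and Cxcr2, at 0.44, did not pass. The 10 mast cell and basophil markers summed to 65.3 and 70.6 CPM against 99.1 and 122 CPM. Of 8 tested genes of that list, 7 fell in the additive edgeR fit. Kit went the other way and rose by 1.62, with 380 and 512 counts against 128 and 137. Tpsb2 had 1 count in SJL/J-labelled males and 0 in the other groups. The 8 pan-T cell markers were detected in all groups and summed to 1274 to 1640 CPM. In such mixed cultures, fewer cells of a type and less RNA per cell cannot be told apart.

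The member genes outside chromosome 18 lie as follows on GRCm38, each interval spanning the annotated gene with its exons and introns. Tgfb1 (ENSMUSG00000002603) lies on chromosome 7, 25687002 to 25705077. Tgfb3 (ENSMUSG00000021253) lies on chromosome 12, 86056745 to 86079041. Tgfbr1 (ENSMUSG00000007613) lies on chromosome 4, 47353222 to 47414931, and Ski (ENSMUSG00000029050) on the same chromosome, 155154075 to 155222592. Tgfbr2 (ENSMUSG00000032440) and Smad3 (ENSMUSG00000032402) lie on chromosome 9, 116084293 to 116175360 and 63646767 to 63757994. Skil (ENSMUSG00000027660) lies on chromosome 3, 31095058 to 31122577. Smad2, Smad4 and Smad7 lie on chromosome 18.

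Between the strain labels, Tgfbr2, Smad4 and Smad7 were higher in the libraries labelled TCR1640 in both sexes, and Tgfb1 was lower. By the 1.5-fold rule 3 of 9 tested members were higher in females, where 9.62% of 10469 genes were called higher and 9.06% lower. In males 4 of 9 were higher, where 12.6% of 10470 genes were called higher and 10.3% lower. The median log2 ratio of the 9 members was 0.15 in females and 0.45 in males, beside 0.02 and 0.03 over all genes tested. An additive edgeR quasi-likelihood fit with terms for strain label and sex (4 samples, leaving 1 residual degree of freedom) called 5 of the 10 between strain labels, 4 higher and 1 lower. It called 13.3% of 17261 genes higher and 13.1% lower. Its residual is the strain-by-sex part, so its SE and Benjamini-Hochberg adjusted p do not measure spread between mice.

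**Figure D1:**
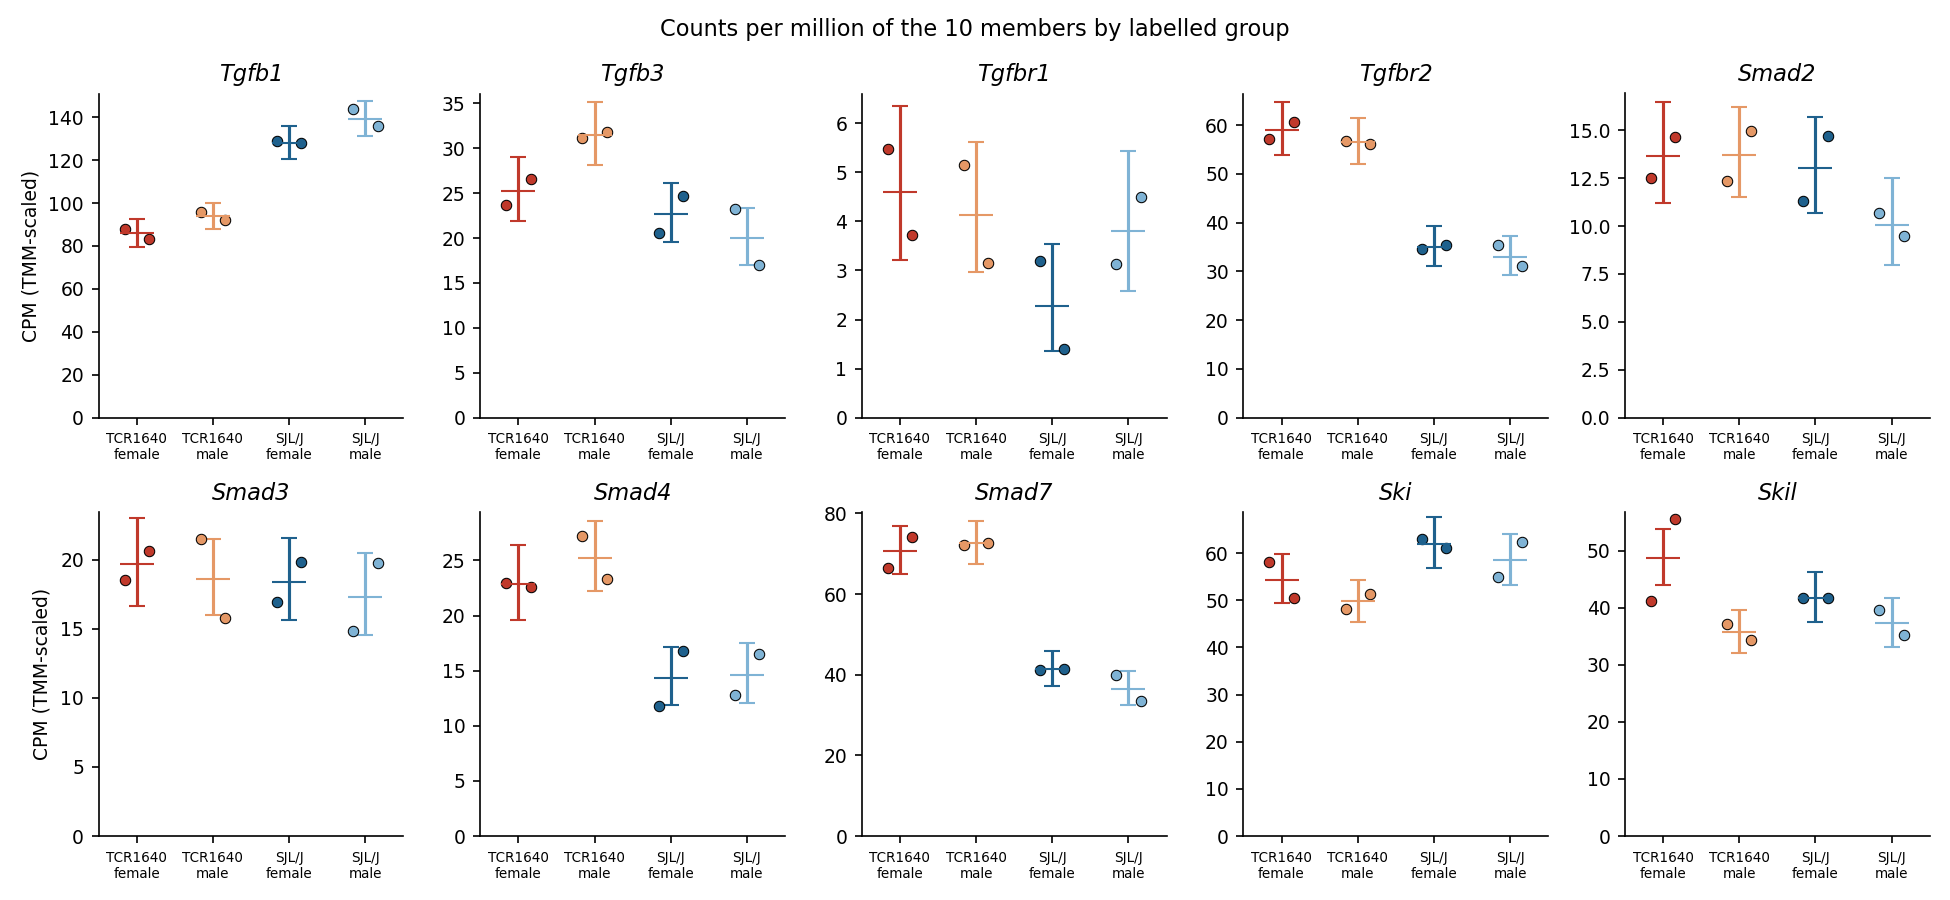
TMM-scaled CPM (vertical axis, linear, from 0) of each of the 10 genes in the 4 labelled groups. Dots are the 2 columns of a group, the bar is their sum and whiskers are its exact 95% counting interval; Tgfb1 sits at 85.9 and 94.0 CPM under the TCR1640 labels against 128 and 139 CPM under the SJL/J labels, and Tgfbr2, Smad4 and Smad7 show the opposite order.

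Tgfb1 encodes the TGF-β isoform that predominates in the immune system. Its counts were 338 and 335 in the TCR1640-labelled female columns, 465 and 466 in the male ones, 525 and 548 in the SJL/J-labelled female columns and 552 and 543 in the male ones. On the CPM scale both SJL/J-labelled groups lay above both TCR1640-labelled ones, with no overlap between columns (127.8 to 143.8 CPM against 83.2 to 95.9 CPM). The log2 ratio of TCR1640 over SJL/J labels was -0.58 in females (counting interval -0.72 to -0.44) and -0.57 in males (-0.69 to -0.44). At 0.670 and 0.675 times the SJL/J level, both lay just short of the 1.5-fold rule. In the additive edgeR fit Tgfb1 fell by 0.57 on the log2 scale (SE 0.13, adjusted p = 9.77e-05), with both sexes in the same direction. Platelets are a rich source of this ligand, and the summed platelet and erythroid markers were lower under the same labels, with Gp1ba going the other way at 0.32. The part of platelets in the Tgfb1 values was not tested.

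Tgfb3, a ligand isoform also made by Th17 cells, differed between strain labels in males and less so in females. Its counts were 91 and 107 in TCR1640-labelled female columns, 151 and 161 in male ones, 84 and 106 in SJL/J-labelled female columns and 89 and 68 in male ones. The TCR1640-labelled male columns were the highest (31.2 and 31.8 CPM), above all 6 others (17.0 to 26.6 CPM). The log2 ratio between strain labels was 0.66 in males (0.38 to 0.94) and 0.15 in females (-0.14 to 0.45). In the additive edgeR fit it rose by 0.41 (SE 0.16, adjusted p = 0.0454), with both sexes in the same direction, and this call rested on small margins. The adjusted p was 0.0522 without TCR1640 female 1, 0.143 without TCR1640 female 2, 0.089 without TCR1640 male 1, 0.0911 without TCR1640 male 2, 0.077 without SJL/J female 1 and 0.218 without SJL/J male 2, and DESeq2 gave 0.645. Without SJL/J male 2 the male log2 ratio was 0.47, below 1.5-fold.

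Tgfb3 is the member with features on the opposite strand. Gm37804 (chromosome 12, 86069173 to 86069779) shares 163 bases with its exons, and Gm48008 (86078644 to 86079754) shares 257. Both had more counts than Tgfb3 itself: 651 and 724 in TCR1640-labelled females against 198 for Tgfb3, 1013 and 1028 in males against 312, 590 and 608 in SJL/J-labelled females against 190, and 429 and 415 in males against 157. The order of the 4 groups was the same for all 3 features. The strain ratio of Gm37804 was 0.24 in females (0.07 to 0.40) and 0.91 in males (0.74 to 1.07), and that of Gm48008 0.35 (0.19 to 0.51) and 0.98 (0.81 to 1.14). Which strand's RNA these counts come from is not known. The Tgfb3 values are therefore uncertain in level and in ratio, and the doubt about strand holds for the other members too. The counts of all 3 features added together stood at 0.275 in females and 0.90 in males, and at 0.59 in the additive edgeR fit (adjusted p = 2.41e-05). Most of these counts came from Gm37804 and Gm48008, so the sum cannot check the call of Tgfb3 itself.

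**Figure D2:**
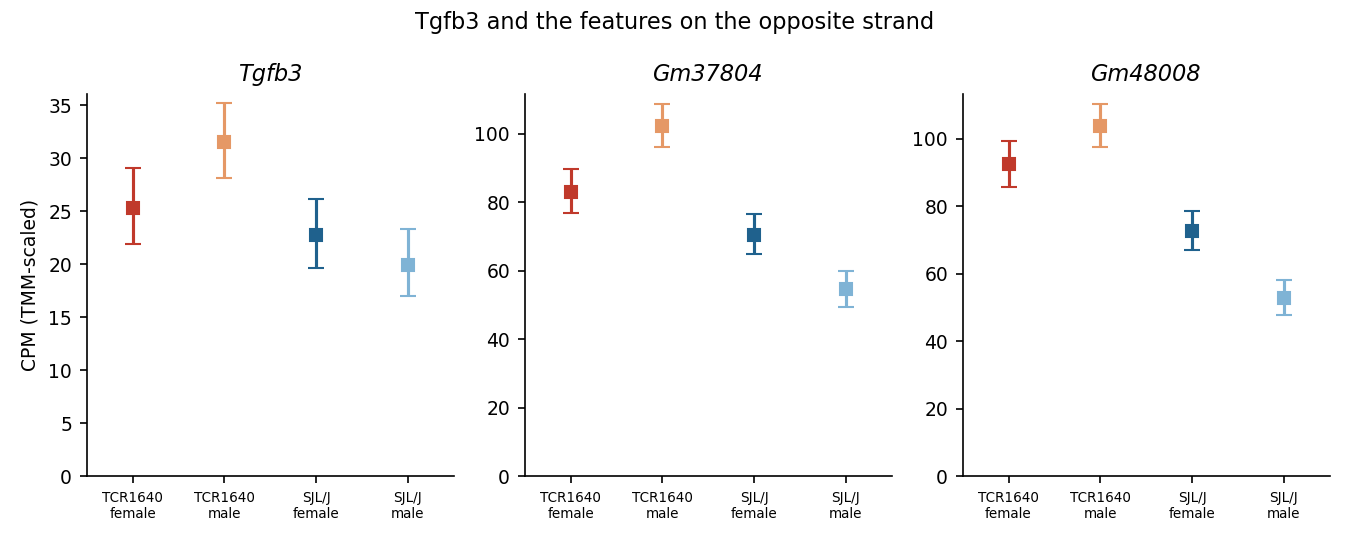
TMM-scaled CPM (vertical axes, linear, from 0, each panel with its own range) of Tgfb3 and of the features Gm37804 and Gm48008 that overlap it on the opposite strand, in the 4 summed samples with exact 95% counting intervals. In all 3 panels the TCR1640-labelled male sample is highest (31.5, 102 and 104 CPM) and the SJL/J-labelled male sample lowest (20.0, 54.5 and 52.8 CPM).

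Tgfbr2, the receptor that binds the ligand first, was higher in the libraries labelled TCR1640. Its counts were 219 and 244 in the female columns and 275 and 285 in the male columns under that label, and 141 and 152 in female and 136 and 124 in male columns labelled SJL/J. All 4 TCR1640-labelled columns (56.2 to 60.6 CPM) lay above all 4 others (31.0 to 35.5 CPM). The log2 ratio was 0.76 in females (0.54 to 0.97) and 0.77 in males (0.56 to 0.99). The additive edgeR fit gave a rise of 0.76 (SE 0.15, adjusted p = 2.29e-06), with both sexes in the same direction.

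Tgfbr1, the signalling kinase of the pair, was close to the limit of this depth. It had 21 and 15 counts in TCR1640-labelled female columns, 25 and 16 in male ones, 13 and 6 in SJL/J-labelled female columns and 12 and 18 in male ones. In females the TCR1640-labelled columns lay above the SJL/J-labelled ones, and in males they overlapped. The female log2 ratio between strain labels was 1.02, with a counting interval of 0.18 to 1.90, and the male one 0.12 (-0.60 to 0.85). The female value rested on single columns: it was 0.56 (-0.39 to 1.59) without SJL/J female 2, 0.68 (-0.41 to 1.73) without TCR1640 female 1 and 1.74 (0.48 to 3.28) without SJL/J female 1. The additive edgeR fit gave 0.53 (SE 0.35, adjusted p = 0.285), so no difference over both sexes was detectable at this depth.

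Smad7, the feedback inhibitor that SMAD signalling itself induces, had the widest range over the 4 summed samples among the 9 members above the floor, 0.99 on the log2 scale. Its counts were 255 and 299 in TCR1640-labelled female columns, 350 and 369 in male ones, 168 and 178 in SJL/J-labelled female columns and 153 and 134 in male ones. The TCR1640-labelled columns held 66.4 to 74.2 CPM and the others 33.5 to 41.5 CPM, without overlap. The log2 ratio was 0.77 in females (0.58 to 0.97) and 0.99 in males (0.79 to 1.195). The additive edgeR fit gave a rise of 0.88 (SE 0.14, adjusted p = 1.65e-08), with both sexes in the same direction. Across the 4 summed samples, the genes with the most similar centred log2 CPM were Mrtfa, Trak1 and Rassf2, at root mean square distances of 0.012, 0.015 and 0.016 among 10467 genes. With 4 points this likeness is a description only.

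Smad4, the partner shared by all receptor-activated SMADs, moved the same way on fewer counts. It had 88 and 91 counts in TCR1640-labelled female columns, 132 and 118 in male ones, 48 and 72 in SJL/J-labelled female columns and 49 and 66 in male ones. All TCR1640-labelled columns lay above the others (22.6 to 27.2 CPM against 11.8 to 16.8 CPM). The log2 ratio was 0.67 in females (0.33 to 1.02) and 0.79 in males (0.46 to 1.12). The additive edgeR fit gave a rise of 0.73 (SE 0.18, adjusted p = 0.000292), with both sexes in the same direction. DESeq2 gave an adjusted p of 0.186, and without SJL/J female 1 the female ratio was 0.47, below 1.5-fold.

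Smad2 and Smad3, the transducers that TGFBR1 phosphorylates, did not pass between strain labels. Smad2 had 48 and 59 counts in TCR1640-labelled female columns, 60 and 76 in male ones, 46 and 63 in SJL/J-labelled female columns and 41 and 38 in male ones. Its log2 ratio was 0.07 in females (-0.33 to 0.47) and 0.45 in males (0.04 to 0.87), and the additive edgeR fit gave an adjusted p of 0.382. The SJL/J-labelled male columns were its lowest, and the other groups overlapped. Smad3 had 71 and 83 counts, 104 and 80, 69 and 85, and 57 and 79 in the same order of groups. Its log2 ratio was 0.10 in females (-0.24 to 0.43) and 0.10 in males (-0.22 to 0.43), all groups overlapped, and its range over the 4 samples was the narrowest of the 10 at 0.19. The additive edgeR fit gave Smad3 0.10 (SE 0.18, adjusted p = 0.74).

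Ski and Skil, the corepressors that SMAD complexes displace when the pathway is active, differed little between strain labels. Ski had 223 and 203 counts in TCR1640-labelled female columns, 233 and 260 in male ones, 257 and 262 in SJL/J-labelled female columns and 211 and 249 in male ones. Its log2 ratio was -0.19 in females (-0.38 to -0.002) and -0.23 in males (-0.42 to -0.05), and the additive edgeR fit did not pass (adjusted p = 0.288). Skil had 158 and 224 counts, 180 and 174, 170 and 179, and 152 and 141 in the same order of groups. The second TCR1640-labelled female column stood at 55.6 CPM and every other column between 34.3 and 41.7 CPM. The female log2 ratio of Skil was 0.22 (0.01 to 0.44), and without TCR1640 female 2 it was -0.06 (-0.34 to 0.22). Its male ratio was -0.06 (-0.29 to 0.17), and the additive edgeR fit gave 0.09 (SE 0.15, adjusted p = 0.732).

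**Figure D3:**
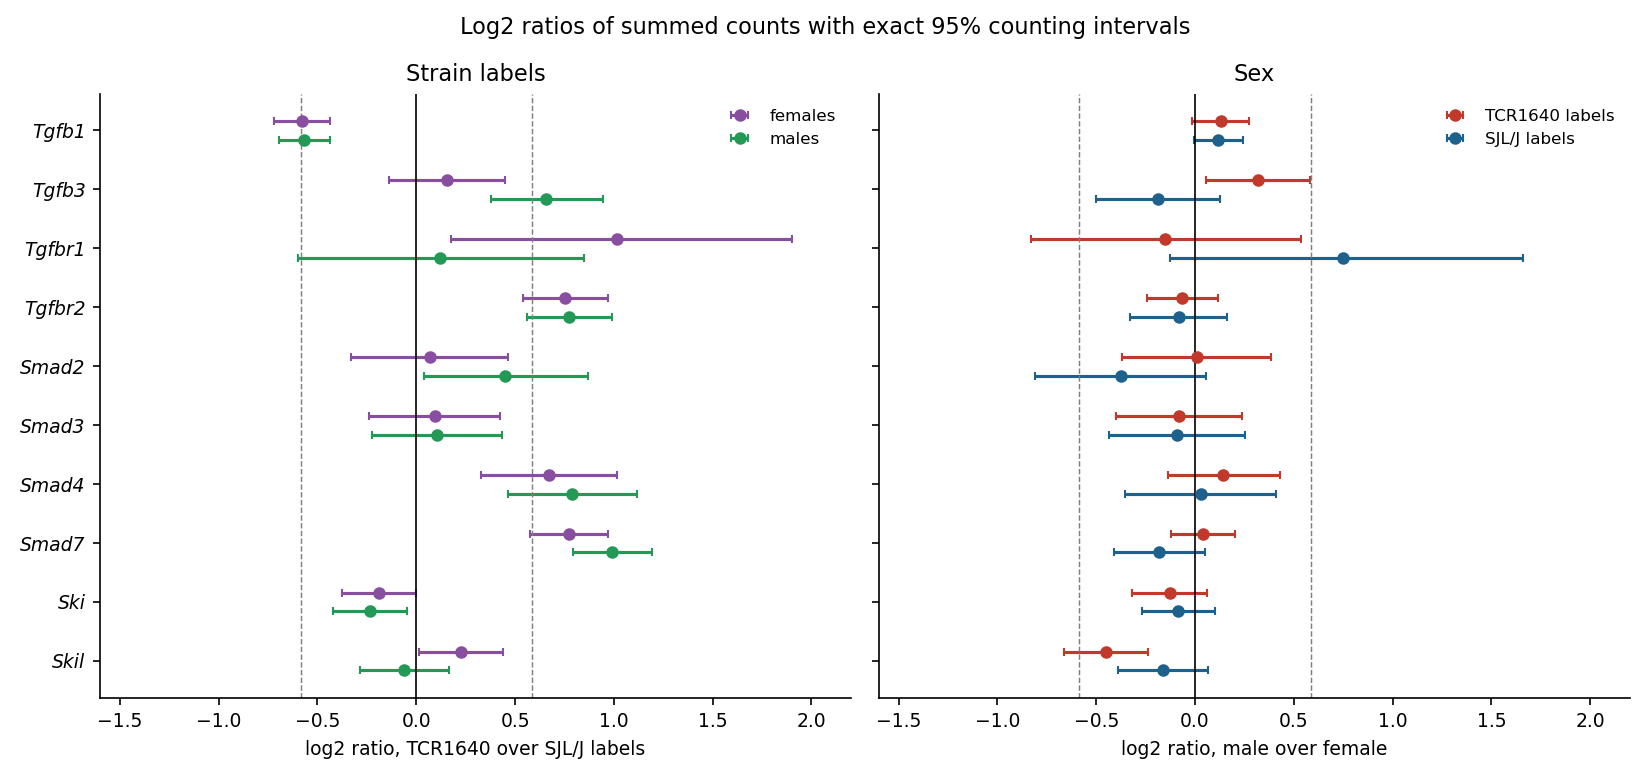
Log2 ratios of summed counts for each of the 10 genes, TCR1640 over SJL/J labels by sex on the left and male over female by strain label on the right. Whiskers are exact 95% counting intervals and dashed lines mark 1.5-fold; Tgfbr2, Smad4 and Smad7 lie past the right dashed line in both sexes on the left, and no gene above the CPM floor is past a dashed line on the right.

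The order of levels per kilobase of exon also differed between the labels. In TCR1640-labelled females Tgfb1 had 17.0 CPM per kb (counting interval 15.8 to 18.4) and Smad7 15.6 (14.4 to 17.0), neighbours whose intervals overlap, followed by Ski at 9.77. In SJL/J-labelled females Tgfb1 had 25.4 CPM per kb (23.9 to 27.0), then Ski 11.2 (10.2 to 12.2) and Smad7 9.15 (8.21 to 10.2). In males Smad7 had 16.1 CPM per kb under the TCR1640 label and 8.07 under the SJL/J label, and Ski 8.95 and 10.5. Tgfbr2 stood at 7.22 and 6.90 CPM per kb in TCR1640-labelled females and males and at 4.28 and 4.04 in those labelled SJL/J. The lower end was alike in every group: Smad3 at 3.12 to 3.55 CPM per kb, Smad2 at 1.14 to 1.56 and Tgfbr1 at 0.348 to 0.703. Levels of different genes carry the doubt about strand given above.

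Ratios between members within a library need no scaling between libraries. There were 1.45 Tgfb1 counts per Tgfbr2 count in TCR1640-labelled females (counting interval 1.29 to 1.64) and 1.66 in males (1.495 to 1.85), against 3.66 (3.22 to 4.18) and 4.21 (3.68 to 4.84) under the SJL/J labels. The 8 columns fell into separate ranges, 1.37 to 1.69 and 3.605 to 4.38. Smad7 had 3.597 and 3.91 counts per Smad3 count under the TCR1640 labels in females and males, against 2.25 and 2.11 under the SJL/J labels. Per Ski count it had 1.30 and 1.46 against 0.667 and 0.624. Tgfb1 had 3.40 and 2.98 counts per Tgfb3 count against 5.65 and 6.97. Another 2 pairs did not separate the labels. Tgfbr2 had 12.9 and 13.7 counts per Tgfbr1 count under the TCR1640 labels against 15.4 and 8.67, and Ski had 1.12 and 1.39 counts per Skil count against 1.49 and 1.57, with overlapping columns for both. All 6 pairs were picked after the members' values had been seen.

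**Figure D4:**
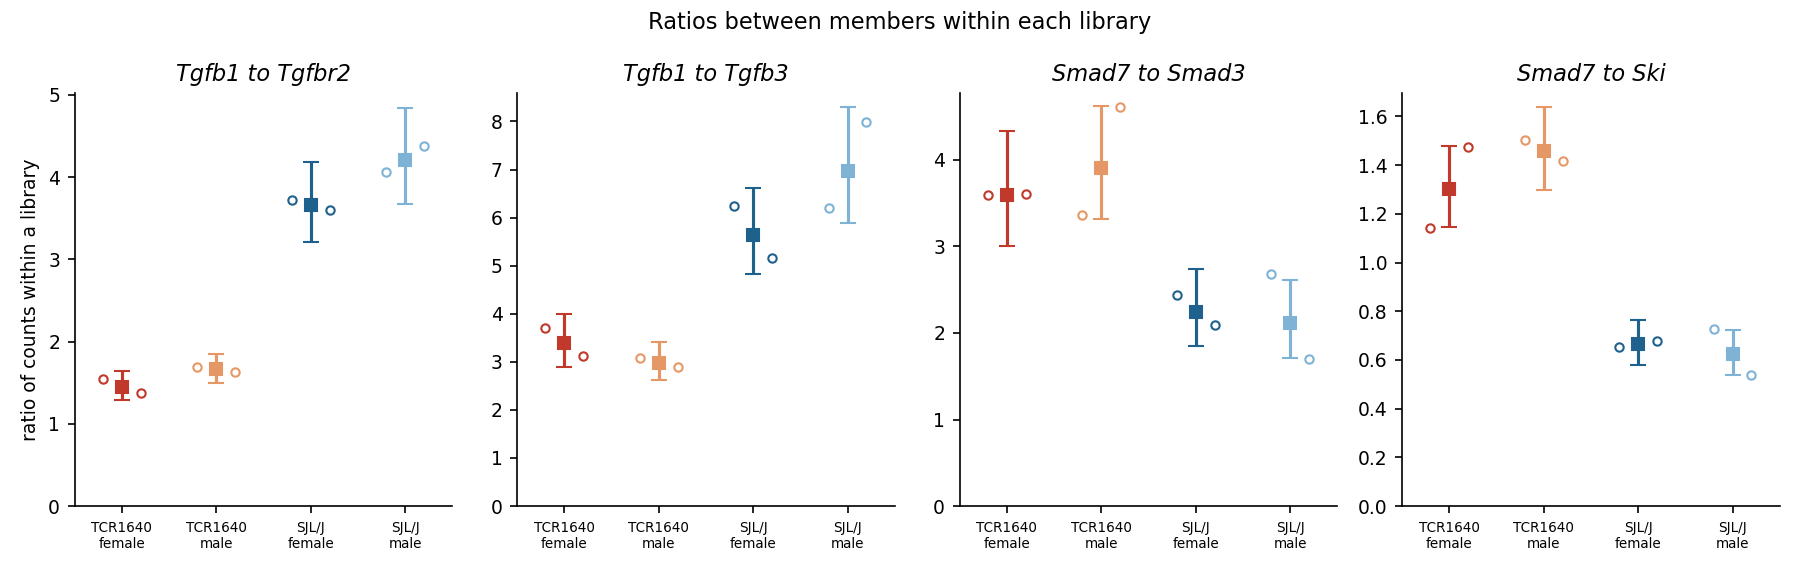
Ratio of the counts of one member to another within each library (vertical axes, linear, from 0), for 4 pairs. Squares are summed samples with exact 95% counting intervals and open circles are the columns; Tgfb1 per Tgfbr2 lies at 1.45 and 1.66 under the TCR1640 labels and at 3.66 and 4.21 under the SJL/J labels.

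Between males and females no member was called, against a background of few calls over all genes. Among TCR1640-labelled samples none of the 9 tested members was called by the 1.5-fold rule, where 1.57% of genes were called higher in males and 3.38% lower. Among SJL/J-labelled samples none was called either, beside 1.3% higher and 2.68% lower. The median log2 male-to-female ratio of the 9 members was 0.01 under the TCR1640 labels and -0.09 under the SJL/J labels, beside 0.03 and 0.004 over all genes tested. In the additive fit over both strain labels edgeR called 0 of 10, with 1 (Skil) at an unadjusted p under 0.05, while it called 0.127% of genes higher and 0.811% lower in males. DESeq2 called 0, with 0 at an unadjusted p under 0.05.

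Tgfb1 stood slightly higher in males under both labels, by 0.13 on the log2 scale (counting interval -0.02 to 0.28) under TCR1640 and 0.12 (-0.004 to 0.24) under SJL/J, with intervals that include equality. The intervals of Tgfbr2 and Smad7 also include equality, with Tgfbr2 at -0.06 (-0.24 to 0.12) and -0.08 (-0.33 to 0.16), and Smad7 at 0.04 (-0.12 to 0.20) and -0.18 (-0.41 to 0.05). Skil stood at -0.45 (-0.66 to -0.24) in TCR1640-labelled males over females, and at -0.16 (-0.44 to 0.12) without TCR1640 female 2. Under the SJL/J labels Skil stood at -0.16 (-0.39 to 0.07). In the additive edgeR fit Skil was at -0.31 (SE 0.15, adjusted p = 0.485).

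The sex ratio of Tgfb3 was 0.32 (0.06 to 0.58) under the TCR1640 labels and -0.19 (-0.50 to 0.13) under the SJL/J labels. The difference of these ratios was 0.50, with a counting interval of 0.11 to 0.90, the only one of the 9 tested members whose interval excluded equality. It did not reach 1.5-fold, where 4.47% of 10468 genes were called with a higher male-to-female ratio under the TCR1640 labels and 4.59% with a lower one. It passed 1.5-fold without TCR1640 female 2 (0.64), without SJL/J female 1 (0.61) and without SJL/J male 1 (0.76). Its interval included equality without SJL/J female 2 (0.34, -0.12 to 0.80) and without SJL/J male 2 (0.32, -0.13 to 0.76). With 1 sample per group this difference could not be tested against spread between mice.

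Other genes of the pathway were described from 4 lists of 106 genes in all, of which 81 passed the expression filter of the additive edgeR fit. Between strain labels 19 rose and 15 fell, and 47 did not pass, where 13.3% of all genes tested were called higher and 13.1% lower. The list medians were -0.47 for ligands and their latent complex, 0.07 for other receptors, 0.18 for other SMADs, ubiquitin ligases and cofactors and 0.08 for response genes, beside 0.01 over all 17261 genes tested. Opposite-strand overlaps touch 30 of the 106 genes, and those named with a partner are uncertain. The doubt about the strand setting holds for the other genes too.

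Among ligands and genes of the latent complex, 5 of 10 tested genes fell in the libraries labelled TCR1640 and none rose, beside 13.1% lower and 13.3% higher over all genes. Thbs1, thrombospondin 1, which can release latent TGF-β, had 16 and 35 counts in TCR1640-labelled females and males against 816 and 970 under the SJL/J labels. Its additive edgeR coefficient was -5.29 (SE 0.20, adjusted p = 3.92e-152), with both sexes in the same direction, and Gm29233 on its opposite strand had 37 and 54 counts against 1519 and 1866. Ltbp1, which anchors the latent complex to matrix and was singled out after its values were seen, had 2 and 1 counts against 83 and 106. Its mean log2 CPM of 2.61 was below the floor of 3. Its log2 ratio was -5.28 in females (counting interval -8.35 to -3.38) and -7.06 in males (-12.38 to -4.55). Mmp9 fell by 1.03 (SE 0.24, adjusted p = 0.000132 in edgeR), Itgav, an integrin chain that activates latent TGF-β, fell by 0.91 (overlapped by Gm13684) and Furin, the protease that cleaves the TGF-β precursor, fell by 0.59 (overlapped by Gm44851). Thbs1 and Ltbp1 are also made by platelets and their precursors, and 9 of 12 tested erythroid and platelet markers fell under the same labels, while Gp1ba, Hba-a1 and Hbb-bs did not pass. Mmp9 is abundant in neutrophils, whose summed markers were also lower under these labels (20.7 and 16.3 CPM against 67.3 and 165 CPM). The neutrophil markers Ly6g and Cxcr2 went the other way, at 1.34 and 0.44. The part of these cell types in the falls was not tested.

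Among other receptors of the family, 3 of 8 tested rose and 1 fell, beside 13.3% and 13.1% over all genes. Acvrl1, a receptor kinase for BMP9 and TGF-β, rose by 1.28 (SE 0.19, adjusted p = 1.75e-10 in edgeR), with 191 and 239 counts against 95 and 68. Eng, its coreceptor endoglin, fell by 0.51 and shares 61 exon bases with Fpgs. Acvr2a, an activin receptor, rose by 0.40 (adjusted p = 0.00756 in edgeR), with a ratio of 0.73 in females and 0.07 in males. It shares 446 exon bases with Orc4.

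Among other SMADs, ubiquitin ligases and cofactors, 6 of 28 tested rose and none fell, with all genes at 13.3% and 13.1%. Tgif2, a SMAD corepressor overlapped by 5430405H02Rik and Gm37790, rose by 0.66 (SE 0.14, adjusted p = 1.34e-05 in edgeR). Ppm1a, a phosphatase of SMAD2 and SMAD3, rose by 0.56 (adjusted p = 0.00231) and Rnf111 (Arkadia), a ligase that targets SMAD7 and SKIL, rose by 0.54 (adjusted p = 0.00418). Crebbp, a SMAD coactivator, rose by 0.53 (adjusted p = 0.0013) and Trim33, a ligase that binds SMADs, rose by 0.45 (adjusted p = 0.0194). The 22 others did not pass. Among them was Pmepa1, a feedback inhibitor that TGF-β induces, at 0.10, which was picked outside the naming rule given below. Its log2 ratio was 0.41 in females (counting interval 0.10 to 0.71) and -0.21 in males (-0.52 to 0.09).

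Genes known to respond to TGF-β in T cells went both ways, with 10 of 35 tested higher and 9 lower, where the shares over all genes were 13.3% and 13.1%. Klf2, which is also on the naive T cell list, rose by 2.14 (SE 0.16, adjusted p = 4.64e-39 in edgeR), from 117 and 122 counts under the SJL/J labels to 495 and 662 under the TCR1640 labels. Gata3, overlapped by Gm13256, rose by 1.41 and Il10 rose by 1.18. The Th17 cytokine genes Il17a and Il17f fell by 1.42 and fell by 1.24. Between sexes 2 of the 81 genes rose in males and none fell in the additive edgeR fit (0.127% and 0.811% over all genes). In that fit Prf1 rose by 0.69 (adjusted p = 0.000491) and Il10 by 0.64 (adjusted p = 0.0211). The number of genes it called between sexes changed much when 1 column was left out, and these 2 genes were not checked for that.

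**Figure D5:**
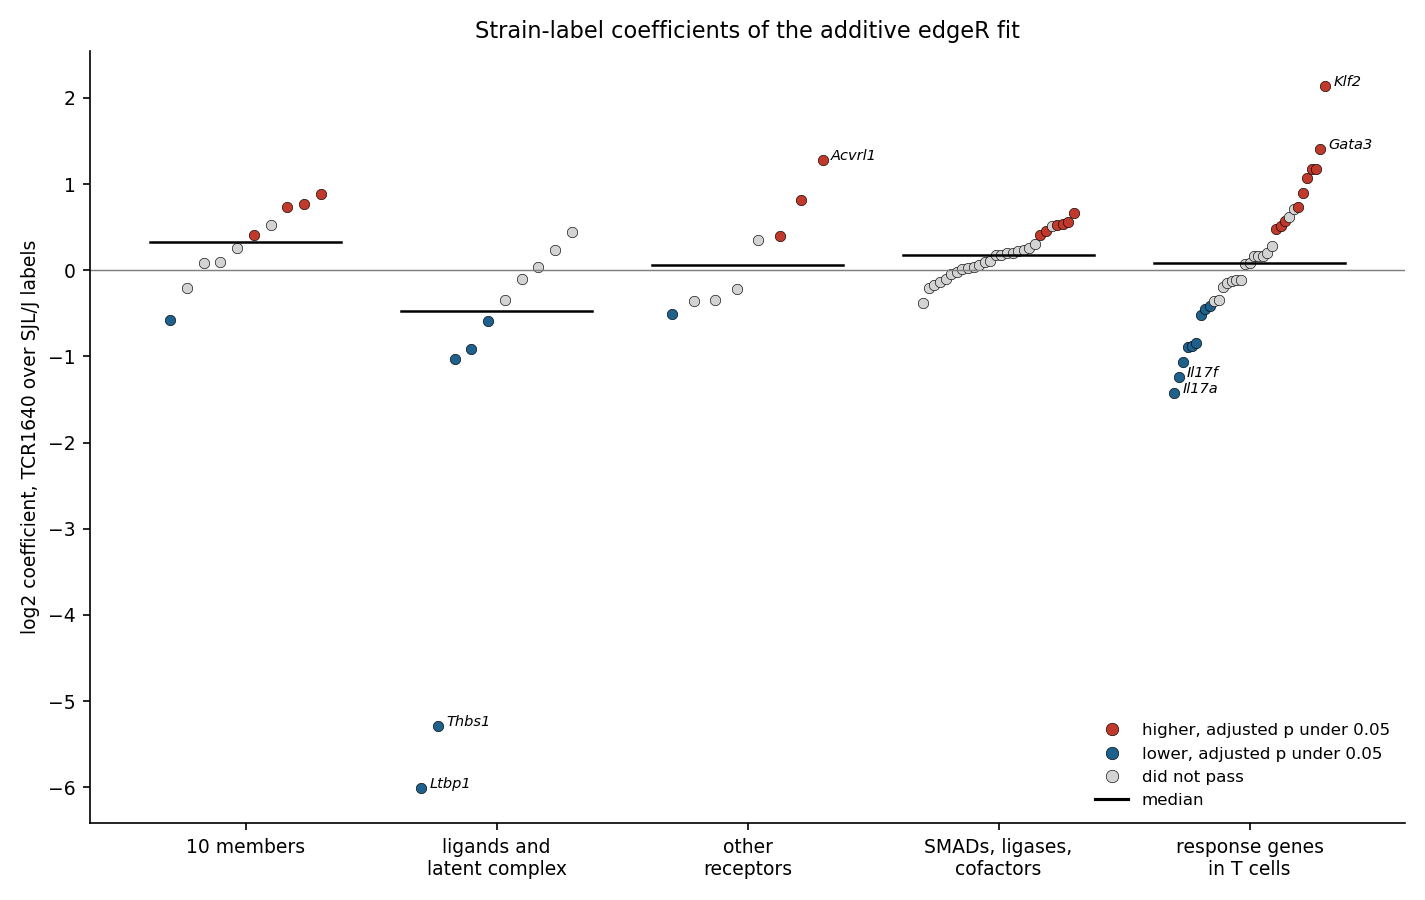
Log2 coefficients between strain labels (vertical axis, TCR1640 over SJL/J) from the additive edgeR fit, one dot per tested gene, for the 10 members and the 4 pathway lists, sorted within each list. Red and blue dots passed an adjusted p of 0.05, grey ones did not and black lines are medians. Thbs1 and Ltbp1 lie far below the rest, at -5.29 and -6.01, and Ltbp1 is below the CPM floor.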

How the data were processed

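The authors deposited raw whole-number counts in 8 columns, with genes given by Ensembl identifier. Bowtie2, HTSeq, bcl2fastq 2.17 and mm10 appear in the submitters' processing notes, and the labels' protocols name a stranded KAPA mRNA kit used on 500 ng of RNA. The sources used here give neither the annotation release nor the strand setting of the counting. Groups and replicate numbers come from the sample titles. Nothing in the labels says whether the 2 columns of a group came from separate mice.

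GENCODE M21 gave symbols, positions and exon lengths, and 147 identifiers were not in it. The counts of a group's columns were summed after a chi-square check (limit 1.5 per degree of freedom) over genes of 20 counts or more, without Gm43333. Ratios used TMM-scaled library sizes and exact conditional binomial intervals at 95%. The difference of sex ratios used a normal interval from the 4 counts. The additive fit (strain label plus sex) used edgeR 4.0.16 under R 4.3.3 with filterByExpr and the quasi-likelihood F test, adjusted by Benjamini-Hochberg over all genes. Each SE is the log2 coefficient over the square root of F, and the common coefficient of variation was 9.8%. The code was tested on simulated data. DESeq2 1.42.0, other factors, filters and thresholds, fits of the 8 columns and leaving out each column were alternatives.

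The members, lists and tests were chosen with earlier results of these data known. Named genes were the members, from each pathway list up to 5 genes by strain coefficient and up to 3 by sex coefficient that passed in edgeR at a mean log2 CPM of at least 3, opposite-strand partners, the 3 genes most like the member with the widest range, and label checks. Ltbp1, Pmepa1 and marker genes were named outside this rule. Marker lists for monocytes and macrophages (136 to 141 CPM summed over 12 markers), B cells (135 to 211 CPM, 12 markers) and stromal cells (92.7 to 107 CPM, 10 markers) were also summed in each group. In the additive edgeR fit Lyz2 and Cd163 fell between strain labels, at -4.39 and -3.9. Csf1r (894 to 1316 counts), which made up most of the monocyte and macrophage sum, did not pass at 0.17, nor did Cd68 at 0.44. Of 11 tested B cell markers 3 rose (Cd79a 0.73, Cd79b 2.18, Pax5 0.95) and 2 fell (Ighm -0.97, Cd22 -0.7). Of 4 tested stromal markers 1 fell (Pdpn -1.45).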

Additional observations from a re-analysis of the deposited data

Results flagged for a closer look

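The male-to-female log2 ratio of Tgfb3 had opposite signs under the 2 strain labels, 0.32 under TCR1640 and -0.19 under SJL/J, a difference of 0.504. The features on its opposite strand did the same on more counts. Gm37804 stood at 0.30 (counting interval 0.16 to 0.44) and -0.37 (-0.55 to -0.19), a difference of 0.67 (0.44 to 0.90). Gm48008 stood at 0.17 (0.03 to 0.31) and -0.46 (-0.65 to -0.28), a difference of 0.629 (0.40 to 0.86). These differences were not tested, since each group is 1 sample, and both features share exon bases with Tgfb3, though not with each other.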

How the results depend on the processing

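Strain calls of Tgfb1, Tgfbr2 and Smad7 in the additive fit held in all 16 settings, with adjusted p up to 0.0192, 0.0148 and 0.00146 (edgeR or DESeq2). Depth limits Tgfbr1, with 6 to 25 counts a column, most. Treating the 8 columns as samples raised the gene counts: without a replicate block to 5690 (strain, females), 6755 (strain, males), 2562 (sex, TCR1640), 1782 (sex, SJL/J), 1612 (difference of sex ratios), 7821 (strain, additive) and 2759 (sex, additive), and with the replicate block to 5746, 6818, 2657, 1894, 1690, 7857 and 2875. Both fits called 5 members between strain labels in females and 1 (Skil) for sex in TCR1640 labels and over both labels. Deviations from the group mean correlated at -0.009 to 0.03 between columns with the same number. With columns of a group this alike, the check cannot show whether the numbers pair them. At 2-fold the counts were 571, 761, 74 and 42 for the 4 comparisons of 2 groups, with 0 members in females and 0 in males between strain labels. Without the floor they were 3742, 4566, 1511 and 1357. DESeq2 called 1339 genes between strain labels, with 3 members, and 6 between sexes.

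Leaving out each column gave 8 to 150 genes for sex over both labels. Members called ranged from 2 to 4 (strain, females) and 3 to 5 (strain, males), beside 2044 to 2084 and 2464 to 2526 calls over all genes. They ranged from 0 to 1 (sex in TCR1640) and 0 to 1 (difference of sex ratios), beside 609 to 669 and 965 to 1036. Tgfb1 passed 1.5-fold without TCR1640 female 1 (-0.663) and without TCR1640 male 1 (-0.627). Over the columns left out, the strain coefficient of Smad3 ran from -0.024 to 0.206 and that of Skil from -0.06 to 0.154, and the sex coefficient of Smad3 from -0.214 to 0.001. For Tgfb3 counts plus those of its opposite-strand features, which made up most of the sum, the sex coefficient was -0.064. The causes were not tested.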
